A study of Homo sapiens with 6 samples.

Results

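The genes described here encode the core of the splicing machinery and its main regulators: the hnRNP proteins, the SR proteins (SRSF genes), the SF3A and SF3B subunits, the U2AF factors, the PRPF factors, and the SNRNP and SNRP proteins of the small nuclear ribonucleoprotein particles. They were chosen by gene name alone. Of 58302 genes in the tables, 264 names began with one of these family symbols, 1 name with a hyphen and 182 pseudogene names were dropped, and 81 genes were left. The SNRNP genes, whose symbols end in P and a number like those of pseudogenes, were kept as genes. Of the 81 members, 77 had at least 1 read, and HNRNPCL2, HNRNPCL3, HNRNPCL4 and SRSF12 had none in any library.

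Poly(A)-binding proteins coat the poly(A) tail of mRNA in the cytoplasm and act in its translation and stability. PABPC1 is the main such protein of most cells, and PABPC4 is a scarcer relative. The spliceosome removes introns in the nucleus: snRNPs built on Sm proteins recognise the splice sites, U2AF and the SF3 complexes mark the end of the intron and the branch point, PRPF proteins assemble and remodel the complex, and SR and hnRNP proteins steer the choice of sites. The proteins work in the nucleus, but their mRNAs are translated in the cytoplasm, where they can be bound on their tails like other mRNAs.

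The RNA came from HepG2, a human hepatocellular carcinoma cell line, and was pulled down from cell lysate with antibodies on magnetic beads (RNA immunoprecipitation, RIP) and sequenced. Per the labels, 2 libraries were made with a PABPC4 antibody from HepG2 cells overexpressing PABPC4, 2 with a PABPC1 antibody from HepG2 cells overexpressing PABPC1, and 2 with rabbit IgG, 1 from each of these overexpressing populations. All libraries therefore came from overexpressing cells. Nothing says that the replicates were separate cultures, so p-values over libraries measure a spread that may be technical within a pulldown. Within IgG the spread also holds the difference between the populations. Between the pulldowns, antibody and overexpressed protein changed together and cannot be told apart. Each pulldown is set against an IgG pair with 1 library from the other population. With no input RNA used here, more of an mRNA in the cells and more of it on the protein cannot be told apart.

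The deposited tables give a fold and a p-value for each antibody against IgG, and the reads of each library were recovered from them. The libraries, called A and B within an antibody, held 850190 and 841327 reads for PABPC4, 289217 and 277552 for PABPC1, and 133030 and 94235 for IgG. Nuclear genes with recovered library reads took 78.8% and 77.5% of the reads in PABPC4 libraries and 53.3% and 58.8% in PABPC1 libraries. In IgG libraries they took 38.7% and 40.7%. Their sums are called nuclear gene reads, or recovered nuclear totals, below. The rest was of mitochondrially encoded genes, of genes with summed reads only and of 4 genes whose reads were not recovered (MALAT1, RN7SL2, MT-RNR1 and MT-RNR2). It therefore holds some nuclear genes too. Of 11 hepatocyte genes, all had reads, with a summed level of 8678 and 9317 RPM (reads scaled to 1000000 reads of the library) in PABPC4 libraries, 6386 and 7184 in PABPC1 libraries, and 3969 and 3746 in IgG libraries. The sum of the 6 blood cell genes ran the other way, at 694 and 548 RPM in PABPC4 libraries, 1221 and 1380 in PABPC1 libraries, and 3495 and 3608 in IgG libraries. HBB was the largest part of that sum in every library. LYZ did not run this way, with 131 and 152 RPM in PABPC4 libraries, 138 and 184 in PABPC1 libraries, and 150 and 127 in IgG libraries. Of the 4 fibroblast genes, all had reads, with a sum of 22.4 and 13.1 RPM in PABPC4 libraries, 48.4 and 36.0 in PABPC1 libraries, and 211 and 159 in IgG libraries. Of the 3 lymphocyte genes CD79A was at 0 and the sum was at most 15.0 RPM in any library. The makeup of the libraries thus moved with the antibody, and its part in the folds over IgG was not tested beyond the rescaled values given below.

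Splicing factor and hnRNP mRNAs made up nearly the same share of the nuclear gene reads in all libraries: 2.22% and 2.14% in PABPC4 libraries, 2.04% and 2.06% in PABPC1 libraries, and 1.95% and 2.002% in IgG libraries. As a share of all reads they stood at 1.75% and 1.66% in PABPC4 libraries, 1.09% and 1.21% in PABPC1 libraries, and 0.753% and 0.814% in IgG libraries. The share of all reads differed by antibody far more than the share of nuclear gene reads.

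Against IgG, the PABPC4 pulldown held more of many of these mRNAs and less of none by the authors' test. In the authors' deposited table, 27 of the 77 members with a read were higher with PABPC4 at an adjusted p under 0.05 and 0 were lower, where 5.54% of all 21455 genes tested were higher and 0.9% lower. An unadjusted p under 0.05 was reached by 41 members. Here and below, counts at an unadjusted p have no share over all genes beside them and describe the members only. The median log2 fold over the 73 members with reads on both sides was 1.07, against 0.65 over all 11633 such genes. The members are well-read genes, which are called more often: among genes with at least 20 summed reads, 31 of 71 members (43.7%) were higher, against 16.9% of all such genes, and their median log2 fold of 1.10 stood beside 0.98 for all. In 61 of the 77 members with a read both PABPC4 libraries lay above both IgG libraries in RPM. This was so for 45.5% of all genes with library reads, which were not matched to the members in depth. The deposited p covers counting error on reads summed over libraries and leaves out the spread between them. Without IgG library A, 17 members were called, where 1.76% of all genes were higher, against 5.54% with both IgG libraries. In that test SF3A3, SNRNP27, SNRNP200, SNRNP48, SNRNP70, HNRNPA3, HNRNPF, HNRNPH3, HNRNPM and SRSF5 no longer passed.

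**Figure D1:**
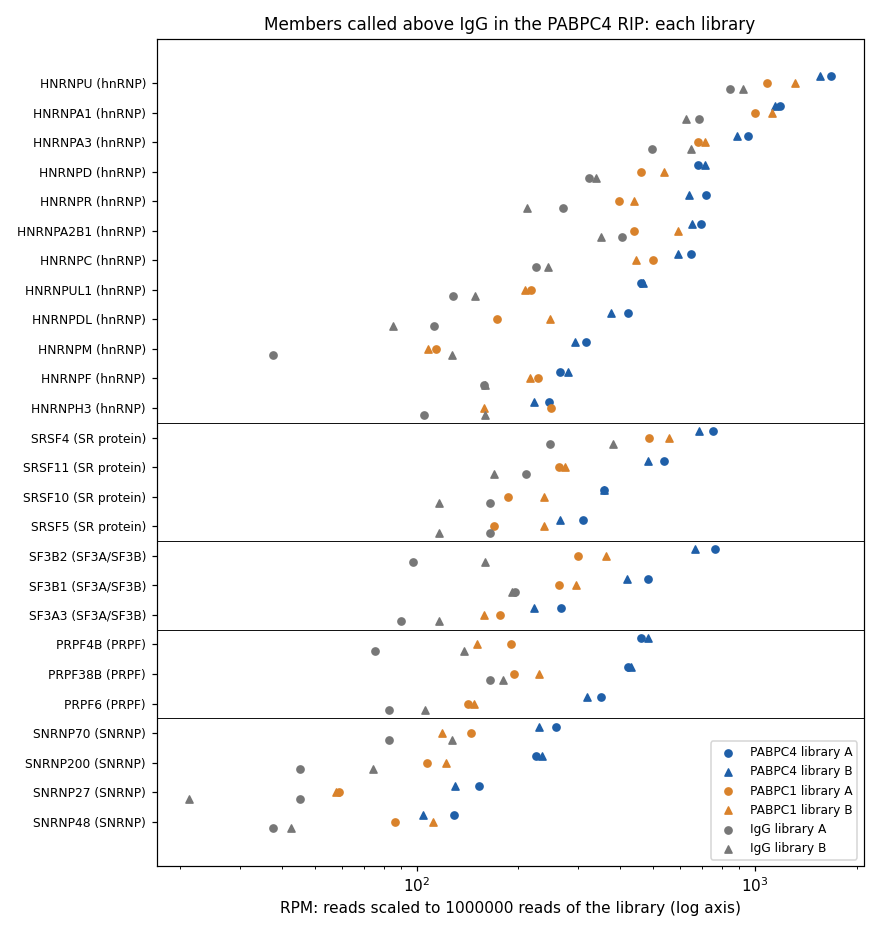
Reads scaled to library size (RPM, log axis) of 26 of the 27 members called higher in the PABPC4 RIP than in IgG, grouped by class, with 1 point for each library (circles library A, triangles library B; blue PABPC4, orange PABPC1, grey IgG). Both PABPC4 points lie right of both IgG points for each gene shown, and the PABPC1 points mostly lie between them.

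These folds are relative to the whole library, mitochondrial rRNA included. When libraries were scaled instead so that the typical gene did not change (median-of-ratios scaling), the median log2 fold over all genes moved to -0.15 and that of the members to 0.26. The same chi-square test then called 6 members higher, SF3B2, PRPF4B, HNRNPDL, HNRNPUL1 and HNRNPM among them, and 1 lower, HNRNPK; over all genes 0.783% were higher and 1.84% lower. The limma (voom) fit over the 6 libraries with that scaling called the same 6 and the same 1. Of all 7986 genes in that fit, 4.01% were called in either direction. Among these better-read genes the medians lay closer together, with a log2 fold of 0.16 over 69 members and 0.07 over all. The other 21 members called in the deposited table were not called in either of these tests, so their excess over IgG was not separated from that of the typical gene.

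The hnRNP genes held 12 of the 27 calls, out of 22 members with a read. HNRNPU, which encodes a nuclear scaffold protein that binds RNA and chromatin, had the most reads of all members, with 1683 and 1554 RPM in PABPC4 libraries, 1086 and 1315 in PABPC1 libraries, and 842 and 923 in IgG libraries. The groups did not overlap, and its fold over IgG in the authors' deposited table was 1.83 with PABPC4 (adjusted p = 5.43e-15). With median-of-ratios scaling that fold was 1.04, and with recovered nuclear totals it was 0.931 (chi-square adjusted p = 1 for each). HNRNPA1, a widely studied repressor of splice site use, had 1188 and 1146 RPM in PABPC4 libraries, 1003 and 1120 in PABPC1 libraries, and 684 and 626 in IgG libraries. Both pulldowns were above IgG, with a PABPC4 fold of 1.78 in the authors' deposited table (adjusted p = 1.29e-09). Per length it had the highest level of the members, with a mean of 229 RPKM (RPM for each kilobase of exon) in PABPC4 libraries, 208 in PABPC1 libraries and 129 in IgG libraries. Reads of such genes can be split with pseudogene copies: the 30 pseudogenes named after HNRNPA1 that had a read summed to 147 and 160 RPM in PABPC4 libraries, 118 and 112 in PABPC1 libraries, and 75.2 and 84.9 in IgG libraries. None of the dropped pseudogenes was called in either deposited table.

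HNRNPDL, a close relative of the AU-rich element binding protein encoded by HNRNPD, showed the largest hnRNP fold among members with at least 5 IgG reads. It had 422 and 374 RPM in PABPC4 libraries, 173 and 249 in PABPC1 libraries, and 113 and 84.9 in IgG libraries. In the authors' deposited table its fold over IgG was 4.03 with PABPC4 (adjusted p = 5.41e-10), with an exact 95% interval of 2.60 to 6.25 from the recovered reads. HNRNPM, which binds GU-rich RNA, had 316 and 295 RPM in PABPC4 libraries, 114 and 108 in PABPC1 libraries, and 37.6 and 127 in IgG libraries. Its PABPC4 fold was 3.70 in the authors' deposited table (adjusted p = 7.76e-08), and its IgG libraries were wide apart. HNRNPUL1, a relative of HNRNPU, had 461 and 468 RPM in PABPC4 libraries, 218 and 209 in PABPC1 libraries, and 128 and 149 in IgG libraries, so that PABPC4 stood apart from both other antibodies. HNRNPR had 716 and 638 RPM in PABPC4 libraries, 398 and 440 in PABPC1 libraries, and 271 and 212 in IgG libraries. HNRNPC, which binds uridine tracts, had 649 and 593 RPM in PABPC4 libraries, 501 and 447 in PABPC1 libraries, and 226 and 244 in IgG libraries. Both genes were higher in each pulldown library than in each IgG library, and their PABPC4 folds in the authors' deposited table were 2.80 for HNRNPR and 2.65 for HNRNPC. The other 5 called hnRNP genes had PABPC4 folds between 1.61 and 2.10 in the authors' deposited table. HNRNPD, which binds AU-rich elements and marks mRNAs for decay, had 680 and 714 RPM in PABPC4 libraries, 460 and 540 in PABPC1 libraries, and 323 and 340 in IgG libraries. HNRNPA2B1, a relative of HNRNPA1 that also acts in RNA transport, had 693 and 653 RPM in PABPC4 libraries, 439 and 594 in PABPC1 libraries, and 406 and 350 in IgG libraries. In RPM the 3 antibodies stood apart in both genes, PABPC4 above PABPC1 and PABPC1 above IgG. Relative to the typical gene, no difference between PABPC4 and PABPC1 was called in either. The direct log2 ratio of PABPC4 over PABPC1 was 0.04 for HNRNPD and -0.05 for HNRNPA2B1 (limma adjusted p = 0.921 and 0.878). Their 95% intervals were -0.19 to 0.26 for HNRNPD and -0.29 to 0.18 for HNRNPA2B1. HNRNPA3 had 954 and 887 RPM in PABPC4 libraries, 681 and 710 in PABPC1 libraries, and 496 and 647 in IgG libraries. HNRNPF, which binds G tracts, had 266 and 281 RPM in PABPC4 libraries, 228 and 216 in PABPC1 libraries, and 158 and 159 in IgG libraries. HNRNPH3 had 246 and 222 RPM in PABPC4 libraries, 249 and 159 in PABPC1 libraries, and 105 and 159 in IgG libraries, so that its PABPC1 libraries spanned the range from IgG to PABPC4. HNRNPH1, a G tract binder like HNRNPF, lay just outside the threshold, with 262 and 269 RPM in PABPC4 libraries, 166 and 227 in PABPC1 libraries, and 180 and 127 in IgG libraries (PABPC4 adjusted p = 0.0503 in the authors' deposited table). With recovered nuclear totals, the PABPC4 folds of HNRNPA1, HNRNPA2B1, HNRNPA3, HNRNPF and HNRNPH3 turned below 1 as well, to between 0.819 and 0.902.

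HNRNPK, which binds cytidine-rich RNA and acts in transcription and translation as well as splicing, had no excess over IgG. It had 186 and 202 RPM in PABPC4 libraries, 166 and 205 in PABPC1 libraries, and 195 and 233 in IgG libraries. The 3 antibodies overlapped, and the fold over IgG in the authors' deposited table was 0.904 with PABPC4 and 0.866 with PABPC1 (adjusted p = 1 for each). Relative to the typical gene HNRNPK was lower with PABPC4, with a fold of 0.515 and an adjusted p of 0.00159 in the chi-square test with median-of-ratios scaling and 0.00798 in limma. HNRNPH2, with 5 IgG reads, had a PABPC4 fold of 0.984 in the authors' deposited table, with an exact 95% interval of 0.413 to 3.41.

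Among the SR genes, which encode splicing activators with a domain rich in arginine and serine, 4 of 11 with a read were called with PABPC4. SRSF4 had 754 and 685 RPM in PABPC4 libraries, 488 and 558 in PABPC1 libraries, and 248 and 382 in IgG libraries, and its PABPC4 fold was 2.28 in the authors' deposited table (adjusted p = 1.20e-10). SRSF11 had 539 and 484 RPM in PABPC4 libraries, 263 and 274 in PABPC1 libraries, and 210 and 170 in IgG libraries, with a PABPC4 fold of 2.69 in the authors' deposited table. Both genes were above IgG in every library of either pulldown. SRSF10, which acts as a repressor when dephosphorylated, had 358 and 359 RPM in PABPC4 libraries, 187 and 238 in PABPC1 libraries, and 165 and 117 in IgG libraries. SRSF5 had 310.5 and 265 RPM in PABPC4 libraries, 169 and 238 in PABPC1 libraries, and 165 and 117 in IgG libraries. They were called with PABPC4 folds of 2.54 for SRSF10 and 2.04 for SRSF5 in the authors' deposited table. The other SR genes with a read, SRSF1, SRSF2, SRSF3, SRSF6, SRSF7, SRSF8 and SRSF9, did not pass, with PABPC4 folds of 1.39 to 2.97 in the authors' deposited table, of which the highest, SRSF2, rested on 1 IgG read. SRSF1, the best known SR protein, had 219 and 204 RPM in PABPC4 libraries, 149 and 123 in PABPC1 libraries, and 97.7 and 180 in IgG libraries, and SRSF6 had 173 and 157 RPM in PABPC4 libraries, 121 and 144 in PABPC1 libraries, and 90.2 and 74.3 in IgG libraries. SRSF3 had 78.8 and 89.1 RPM in PABPC4 libraries, 48.4 and 93.7 in PABPC1 libraries, and 67.7 and 53.1 in IgG libraries. PABPC4 lay above IgG in each of these 3 genes, and PABPC1 overlapped IgG in SRSF1 and SRSF3.

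SF3A and SF3B are the subcomplexes with which the U2 snRNP grips the branch point, and 3 of their 9 members were called with PABPC4. SF3B2 showed the largest fold of all members with at least 5 IgG reads. It had 765 and 664 RPM in PABPC4 libraries, 301 and 364 in PABPC1 libraries, and 97.7 and 159 in IgG libraries. The groups stood in that order without overlap, and the fold over IgG in the authors' deposited table was 5.56 with PABPC4 (adjusted p = 1.29e-22), with an exact 95% interval of 3.99 to 8.77. SF3B1, the large SF3b subunit that is often mutated in blood cancers, had 482 and 420 RPM in PABPC4 libraries, 263 and 295 in PABPC1 libraries, and 195 and 191 in IgG libraries, and SF3A3 had 267 and 222 RPM in PABPC4 libraries, 176 and 159 in PABPC1 libraries, and 90.2 and 117 in IgG libraries. Their PABPC4 folds in the authors' deposited table were 2.33 for SF3B1 and 2.36 for SF3A3. Of the other SF3a subunits, SF3A2 had 135 and 125 RPM in PABPC4 libraries, 114 and 126 in PABPC1 libraries, and 60.1 and 53.1 in IgG libraries, and SF3A1 had 118 and 106 RPM in PABPC4 libraries, 72.6 and 68.5 in PABPC1 libraries, and 45.1 and 84.9 in IgG libraries; neither passed. SF3B3 had 5 IgG reads in all, SF3B6 had 2 and SF3B5 had 0. SF3B4 had the lowest fold, 0.557 with PABPC4 in the authors' deposited table (adjusted p = 1): all 5 of its IgG reads fell in library B.

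Of the 13 PRPF genes, 4 were called with PABPC4. PRPF4B encodes a kinase that acts on spliceosomal proteins, and had 461 and 484 RPM in PABPC4 libraries, 190 and 151 in PABPC1 libraries, and 75.2 and 138 in IgG libraries. Its PABPC4 fold was 4.43 in the authors' deposited table (adjusted p = 3.05e-13). The PABPC4 libraries stood well above all 4 other libraries. PRPF6, which bridges parts of the tri-snRNP, had 352 and 319 RPM in PABPC4 libraries, 142 and 148 in PABPC1 libraries, and 82.7 and 106 in IgG libraries. PRPF38B, a relative of the tri-snRNP protein encoded by PRPF38A, had 422 and 430 RPM in PABPC4 libraries, 194 and 231 in PABPC1 libraries, and 165 and 180 in IgG libraries. Their PABPC4 folds in the authors' deposited table were 3.55 for PRPF6 and 2.47 for PRPF38B. PRPF38A lay just outside the threshold, with a PABPC4 fold of 2.75 in the authors' deposited table (adjusted p = 0.0567) on 8 IgG reads. PRPF8, the scaffold of the catalytic core, had 68.2 and 91.5 RPM in PABPC4 libraries, 62.2 and 50.4 in PABPC1 libraries, and 67.7 and 53.1 in IgG libraries, and did not pass. PRPF3 did not pass either, with a PABPC4 fold of 1.17 in the authors' deposited table.

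The SNRNP genes, which encode proteins particular to single snRNPs, gave 4 calls of 7. SNRNP200, the helicase that unwinds the U4 and U6 RNAs, had 226 and 234 RPM in PABPC4 libraries, 107 and 123 in PABPC1 libraries, and 45.1 and 74.3 in IgG libraries, with a PABPC4 fold of 3.85 in the authors' deposited table (adjusted p = 8.06e-06). SNRNP27 had 153 and 130 RPM in PABPC4 libraries, 58.8 and 57.6 in PABPC1 libraries, and 45.1 and 21.2 in IgG libraries, or 8 reads in IgG. SNRNP70 of the U1 snRNP had 258 and 231 RPM in PABPC4 libraries, 145 and 119 in PABPC1 libraries, and 82.7 and 127 in IgG libraries. SNRNP48 of the minor spliceosome had 129 and 105 RPM in PABPC4 libraries, 86.4 and 112 in PABPC1 libraries, and 37.6 and 42.4 in IgG libraries, so that both pulldowns stood above IgG and overlapped each other. Their PABPC4 folds were 2.32 for SNRNP70 and 2.92 for SNRNP48 in the authors' deposited table, and the uncalled SNRNP25, SNRNP35 and SNRNP40 had 1.23 to 3.37 in the authors' deposited table on 2 to 10 IgG reads. The SNRP genes, which encode the Sm ring and a few U1 and U2 proteins, gave 0 calls of 11 with PABPC4, although all 11 had a fold above 1. They had 885 reads in all in PABPC4 libraries, 261 in PABPC1 libraries and 62 in IgG libraries. SNRPD1, with the most reads among them, had 95.3 and 128 RPM in PABPC4 libraries, 86.4 and 50.4 in PABPC1 libraries, and 60.1 and 53.1 in IgG libraries. SNRPA had a PABPC4 fold of 1.06 and SNRPA1 a PABPC1 fold of 0.710 in the authors' deposited tables. None of the 4 U2AF members was called. U2AF2, which binds the polypyrimidine tract, had 107 and 113 RPM in PABPC4 libraries, 89.9 and 104 in PABPC1 libraries, and 45.1 and 74.3 in IgG libraries, each pulldown library above each IgG library. U2AF1 and its near-identical copy U2AF1L5 had 1 and 0 IgG reads, and reads can be split between them.

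**Figure D2:**
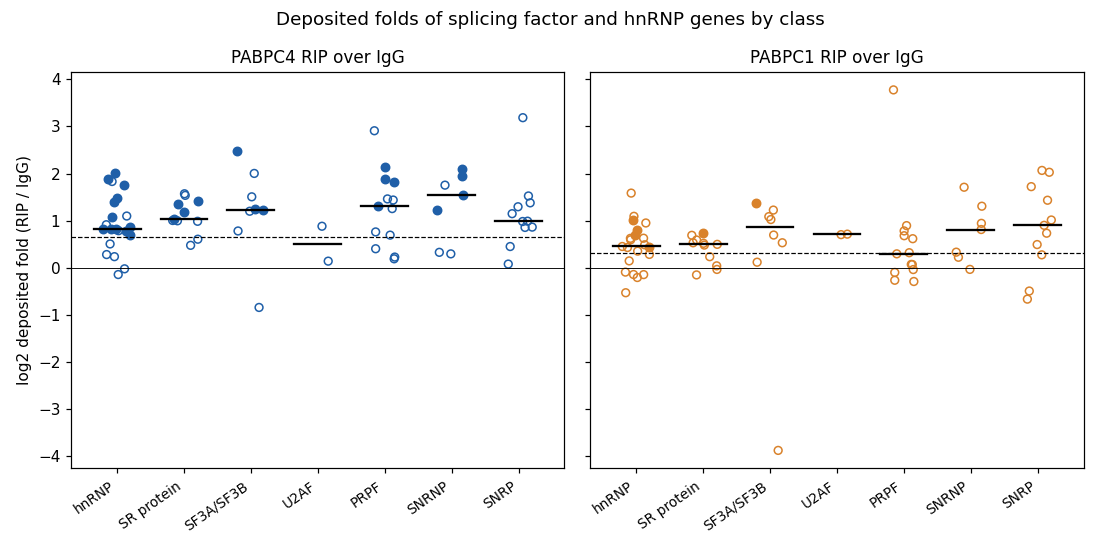
The log2 of the deposited fold of RIP over IgG for each member with reads on both sides, by class, with PABPC4 in the left panel and PABPC1 in the right. Filled points have a deposited adjusted p under 0.05, black bars are class medians and the dashed line is the median of all genes (0.65 for PABPC4, 0.32 for PABPC1); 27 points are filled for PABPC4 and 6 for PABPC1.

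Fewer of these mRNAs passed with PABPC1. In the authors' deposited table, a total of 6 of 76 members were higher with PABPC1 than with IgG at an adjusted p under 0.05 and 0 were lower, where 1.34% of all 17565 genes tested were higher and 0.194% lower. An unadjusted p under 0.05 was reached by 24 members, and the median log2 fold over 73 members was 0.53, against 0.32 over all 11018 genes with reads on both sides. Among genes with at least 20 summed reads, 11 of 56 members (19.6%) were higher, against 8.23% of all such genes. There the median log2 fold of the members was 0.59, beside 0.55 for all. The 6 genes were HNRNPU, HNRNPA1, HNRNPC, HNRNPR, SRSF4 and SF3B2, each of which was also called with PABPC4; both comparisons share the IgG libraries. Their PABPC1 folds in the authors' deposited table were 2.59 for SF3B2 (adjusted p = 0.000117), 2.02 for HNRNPC (0.000372), 1.73 for HNRNPR (0.0317), 1.66 for SRSF4 (0.00637), 1.62 for HNRNPA1 (5.15e-05) and 1.36 for HNRNPU (0.0115). Both PABPC1 libraries lay above both IgG libraries in 41 of the 77 members with a read. This was so for 22.7% of all genes with library reads, again not matched in depth. With median-of-ratios scaling the chi-square test called 0 members, against 0.495% of all genes, and limma (voom) with that scaling also called 0, against 0.939% of the genes it fitted, with 10 and 9 members at an unadjusted p under 0.05. The PABPC1 libraries had far fewer reads than the PABPC4 libraries (566769 in all against 1691517 for PABPC4), so the counts of calls cannot be read as effect sizes. The median log2 fold of the members was 0.53 with PABPC1 and 1.07 with PABPC4. The part of read depth in the lower count was not tested. The count also rested on single libraries: it came to 10 when PABPC1 library A was left out and to 3 when PABPC1 library B was. Of all genes, 1.75% and 0.961% were then called, against 1.53% with all libraries. With IgG library A left out the count came to 2, HNRNPA1 higher and SF3B4 lower, where 0.43% of all genes were called. Among members with at least 5 IgG reads, SNRPD3, SNRPF, SF3B2, SNRNP48 and HNRNPDL had the largest PABPC1 folds in the authors' deposited table, from 2.13 to 4.08, and SF3B4, SNRPA, HNRNPLL, SNRPA1 and PRPF3 the smallest, from 0.0679 to 0.816.

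The 2 pulldowns were then compared directly, with limma (voom) on the library reads and Benjamini-Hochberg adjustment over the 7986 genes fitted. Relative to the typical gene, mRNAs of 7 members were higher with PABPC4 than with PABPC1, among them PRPF4B, HNRNPM, PRPF6, HNRNPUL1, SF3B2 and PRPF38B. Those of 3 were lower: SNRPD3, SNRPF and HNRNPA1. These are 10 of 69 members fitted, where 2.43% of all genes were higher and 2.05% lower (4.48% in either direction). The median log2 ratio of the members was 0.06, against 0.00 over all genes. The fit was also kept to genes with 20 reads or more in 4 or more libraries. There 13 of 36 members (36.1%) were called, against 30.3% of all 1536 such genes. Of these members 10 (27.8%) were higher and 3 lower, where 255 (16.6%) and 210 of all such genes were.

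The PRPF genes supplied 4 of the 7 higher calls. PRPF4B had a log2 ratio of 1.03 ± 0.18 (SE; limma adjusted p = 0.000148), the largest of the called ratios. PRPF6 had a log2 ratio of 0.75 ± 0.18 (SE; limma adjusted p = 0.0103). PRPF38B had a log2 ratio of 0.56 (limma adjusted p = 0.0285). A ratio above 0 was found in 39 of the 69 members fitted. Among them were 8 of 10 SR genes, 6 of 8 SF3A and SF3B genes and 7 of 21 hnRNP genes. Of the 13 PRPF genes 10 had a ratio above 0, with a median of 0.56. PRPF19, the ubiquitin ligase of the spliceosome, had the lowest, -1.15 ± 0.40 (SE; limma adjusted p = 0.0997), on PABPC1 libraries that lay far apart at 24.2 and 79.3 RPM beside 34.1 and 22.6 in PABPC4 libraries.

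Of the other classes, HNRNPM had a log2 ratio of 1.00 ± 0.22 (SE; limma adjusted p = 0.00336), and HNRNPUL1 and SF3B2 had 0.67 and 0.66 (limma adjusted p = 0.00562 and 0.00209). SRSF11 had the smallest adjusted p of the genes not called, 0.0517 in limma, at a log2 ratio of 0.48 ± 0.15 (SE). No SR, SNRNP or U2AF gene passed in either direction. HNRNPU, with the most reads of all, had a log2 ratio of -0.01 with a 95% interval of -0.17 to 0.15, and SRSF4, with the most reads of the SR genes, had 0.01.

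The Sm ring genes SNRPD3 and SNRPF were the lowest called. SNRPD3 had 50.6 and 71.3 RPM in PABPC4 libraries and 79.5 and 112 in PABPC1 libraries, a log2 ratio of -1.11 ± 0.26 (SE; limma adjusted p = 0.00812). SNRPF had 63.5 and 57.1 RPM in PABPC4 libraries and 100 and 79.3 in PABPC1 libraries, a log2 ratio of -1.02 ± 0.26 (SE; limma adjusted p = 0.0152). With library totals they were -0.66 for SNRPD3 and -0.58 for SNRPF and neither was called. Among the other Sm genes fitted, SNRPD1, SNRPD2 and SNRPE had log2 ratios of 0.28, 0.28 and 0.61 and SNRPB had -0.25, none of them called. HNRNPA1 had a log2 ratio of -0.31 ± 0.08 (SE; limma adjusted p = 0.0207), and its direction rests on the scaling: with library totals the log2 ratio was 0.14 (adjusted p = 0.309).

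**Figure D3:**
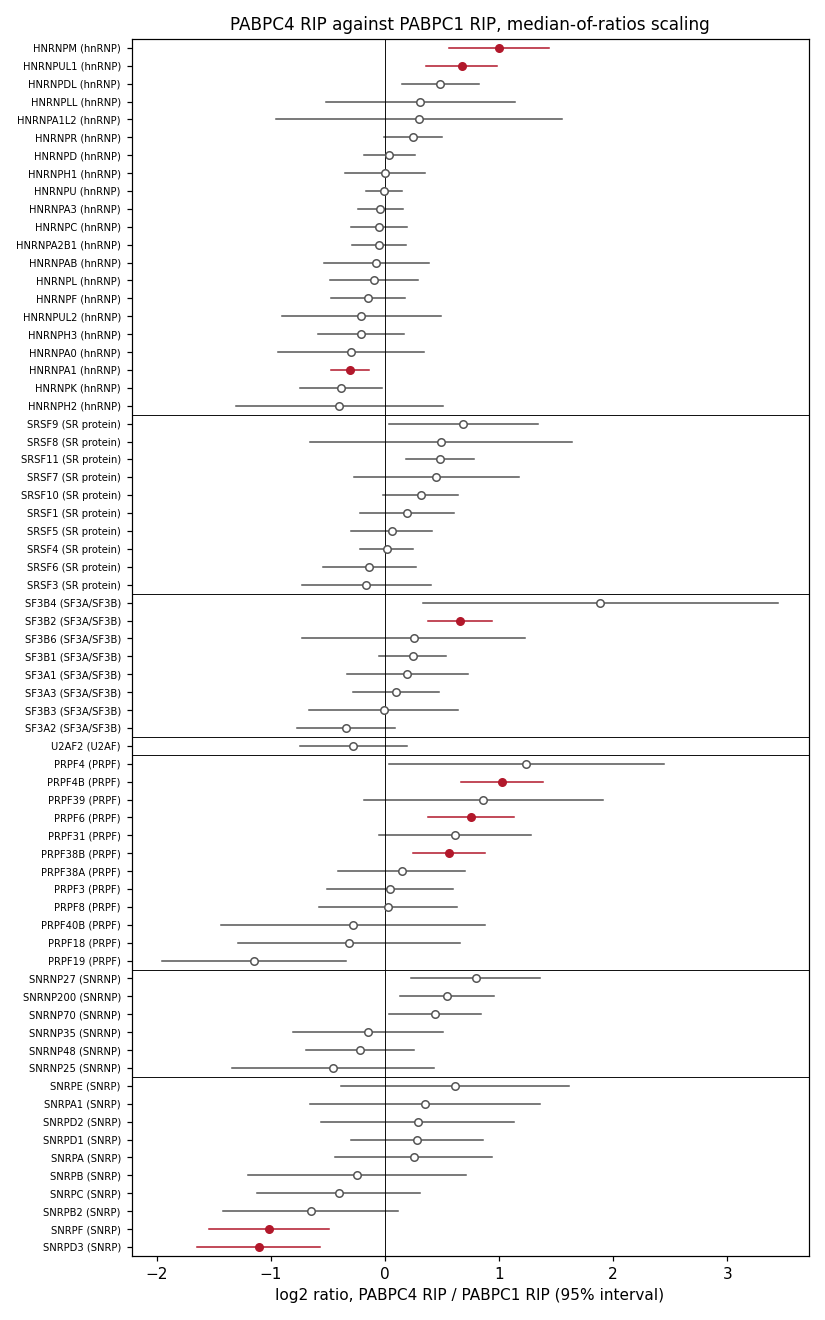
The log2 ratio of PABPC4 RIP over PABPC1 RIP for 68 of the 69 members fitted (limma, voom, median-of-ratios scaling), ordered within class, with 95% intervals as lines. Filled red points have an adjusted p under 0.05: of those shown, 6 lie right of 0, 3 of them PRPF genes, and 3 lie left of 0.

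The direct calls depended on the PABPC1 pair. Leaving out either PABPC1 library left 0 of the 10 calls, although each log2 ratio kept its sign, and for PRPF4B it was 1.25 without library A and 0.80 without library B. Hardly any gene of the whole fit passed with a single PABPC1 library, so this loss was not particular to the members. With a trended variance in place of voom weights 0 members and 0 of all 7986 genes passed, and 11 members had an unadjusted p under 0.05. With library totals as scaling the 7 higher calls were again made; 26 members were higher and 0 lower, where 13.9% of all genes were higher and 0.664% lower and the median log2 ratio of all genes was 0.45. With median-of-ratios scaling, both PABPC4 libraries lay above both PABPC1 libraries in 29 of the 69 members (42%) and below in 12 (17.4%), against 28% and 21.3% of all genes fitted. Exon length did not order the ratios: across the 69 members Spearman's rho between length and log2 ratio was 0.13, and across all genes fitted, which share the same libraries, it was 0.01.

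A wider list of splicing genes outside these families was read in the same way. Of 98 such genes with 1 entry in the tables, 97 had a read (RALYL had none), and in the authors' deposited tables a total of 43 were higher with PABPC4 and 9 with PABPC1, with 0 lower in either, where 5.54% and 1.34% of all genes were higher. Among genes with at least 20 summed reads, 45 of 90 were higher with PABPC4 and 15 of 71 with PABPC1, where 16.9% and 8.23% of all such genes were. With median-of-ratios scaling the chi-square test called 8 higher with PABPC4 and 1 with PABPC1, where 0.783% and 0.205% of all genes were higher. With library totals and IgG library A left out it called 17 with PABPC4 and 1 with PABPC1, where 1.76% and 0.287% of all genes were higher. Their median fold over IgG in the authors' deposited tables was 2.46 with PABPC4 and 1.47 with PABPC1. In the direct comparison 10 of 87 fitted were higher and 1 lower with PABPC4, where 2.43% of all genes were higher and 2.05% lower, with a median log2 ratio of 0.26. None of the 87 passed without PABPC1 library A, without PABPC1 library B or with a trended variance. Hardly any of all genes passed in those fits either. When the fit was kept to genes with 20 reads or more in 4 or more libraries, 12 of 43 were higher and 4 lower, where 255 and 210 of all 1536 such genes were. With all 87 genes in the fit, the lower one was PTBP3, a relative of the polypyrimidine tract binding protein, with a log2 ratio of -0.82 (limma adjusted p = 0.000858). The 3 higher ones with the smallest adjusted p, picked after their values were seen, were RBM25, PNN and SON, which encode nuclear proteins that act in splicing. PNN had 2648 and 2323 RPM in PABPC4 libraries, 1062 and 1182 in PABPC1 libraries, and 804 and 1072 in IgG libraries. RBM25 had 1660 and 1449 RPM in PABPC4 libraries, 591 and 609 in PABPC1 libraries, and 346 and 626 in IgG libraries, and SON had 480 and 415 RPM in PABPC4 libraries, 149 and 169 in PABPC1 libraries, and 188 and 159 in IgG libraries. For all 3 genes PABPC4 stood above both other antibodies, while the PABPC1 and IgG libraries overlapped. Their log2 ratios of PABPC4 over PABPC1 were 0.70 for PNN, 0.92 for RBM25 and 1.03 for SON.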

How the data were processed

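RIP-seq was measured in 6 HepG2 libraries. The authors deposited 2 tables, for PABPC4 against IgG and PABPC1 against IgG, each holding for 58302 genes a linear fold (a ratio), a p-value and a Benjamini-Hochberg adjusted p-value, per the file headers. Per the submitters' processing notes, featureCounts 2.0.1, STAR 2.7.10a, Bowtie2 2.4.1 and the builds hg38 and GRCh38 were used, without roles. Strand-specific counting is not stated in the labels or headers, so a gene and an antisense partner cannot be told apart. The tables hold 0 columns of single libraries. The deposited p-values equal those of a Yates-corrected chi-square test on summed reads, and the deposited fold equals the mean RPKM of the RIP libraries over that of IgG plus 0.005 RPKM, as worked out from the values. From these, whole reads per library were recovered for 22138 of the 22607 genes with a p-value in either table, sums only for 465, and none for 4; all 77 members with a read have library reads. Recomputing 37231 folds gave a largest relative difference of 5.11e-15, and 14947 of 14947 genes solved in each table separately gave equal IgG reads, which means that the IgG pair was shared. On simulated tables the recovery returned 20155 of 20155 sets of library reads. Libraries are called A (more reads) and B, since the values do not tie them to replicate numbers.

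Calls against IgG are the authors' own, taken at a deposited adjusted p under 0.05. PABPC4 was set against PABPC1 with limma 3.58.1 (voom, R 4.3.3) on the recovered reads of genes with 10 or more reads in 2 or more of the 6 libraries, median-of-ratios scaling, 3 groups, 3 residual and 32.7 prior degrees of freedom. In simulated libraries of 7710 genes, this fit called 21 of 100 genes changed 2-fold, 71 of 100 changed 4-fold and 2 unchanged genes. Their counts were drawn with an assumed spread and the same mean profile for all antibodies apart from the changed genes. The shifts in makeup between the real libraries were left out, so these counts do not measure the error of the real fit. Intervals on ratios are exact 95% intervals on summed reads scaled by library totals and cover counting error only; PCR copies are not independent molecules. RPM values use all reads of a library. Named genes are the members called in any comparison, those with the most reads in each class, and the 5 largest and 5 smallest folds in each table among members with at least 5 IgG reads; PRPF8, PRPF19 and a few others are named beside them to complete a class. One gene that the rule names is not reported here by name, though the counts hold it. The members, the gene lists and these rules were chosen with earlier results of these data known. MATR3, of the wider splicing list, is entered under several IDs and was not used. Alternatives changed the scaling, the test, the read filter, the variance model and the libraries used.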

Additional observations from a re-analysis of the deposited data

How the results depend on the processing

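For PABPC4 against IgG, 27 calls became 7 with median-of-ratios scaling, 5 with recovered nuclear totals, and 7 in limma (voom) with median-of-ratios scaling. Of all genes, 6.4% were called in the deposited table and 2.6%, 2.6% and 4.0% in these 3 alternatives. The median log2 fold of the members, 1.07, became 0.256 and 0.0947 in the first 2. For PABPC1 against IgG, 6 calls became 0 under the same 3 alternatives, with 10, 7 and 9 members at an unadjusted p under 0.05. Of all genes, 0.495%, 0.57% and 0.939% were called there. The median of 0.53 became 0.134 and 0.0152 in the first 2. Restricting the test to genes with at least 20 reads gave 11 PABPC1 calls, where 9.0% of all such genes were called. Leaving out each library in turn gave 17 to 28 PABPC4 calls with a median of 0.95 to 1.13, and 2 to 10 PABPC1 calls with a median of 0.47 to 0.60. Of all genes, 2.4% to 7.0% were called with PABPC4 and 0.43% to 1.7% with PABPC1 in the same tests. For PABPC4 against PABPC1, 10 calls became 26 with library totals (median log2 ratio 0.51) and 26 with a chi-square test on summed reads, 1 with a filter of at least 1 read in 2 libraries, and 0 with a trended variance (11 at an unadjusted p under 0.05); leaving out each library gave 0 to 15, the 0 arising without either PABPC1 library (9 and 11 at an unadjusted p under 0.05), with the lone library assumed to vary like the others. In those 2 fits the prior degrees of freedom fell to 6.13 and 5.98, against 32.7 with all libraries, and hardly any of all genes passed. With a trended variance none of all 7986 genes passed. Of all genes, 14.6% were called with library totals, 5.11% with the chi-square test and 0.737% with the 1-read filter. Without PABPC4 library A or B, only 4378 or 4371 genes were fitted, and the prior degrees of freedom were infinite. A larger share of all fitted genes was called there than with all libraries, so the 15 cannot be read against the 10. For PABPC4 against IgG, fold directions turned for HNRNPA3 and HNRNPF, to 0.918 and 0.977 with median-of-ratios scaling and 0.924 and 0.949 in limma. With recovered nuclear totals they were 0.819 and 0.874. HNRNPA2B1 and HNRNPA1 turned to 0.901 and 0.902 with recovered nuclear totals and to 0.988 and 0.996 in limma. HNRNPU and HNRNPH3 turned to 0.931 and 0.902 with recovered nuclear totals. For PABPC1 against IgG, HNRNPU turned to 0.961 with recovered nuclear totals. Between PABPC4 and PABPC1, HNRNPA1 turned to 1.10 with library totals and 1.10 with the chi-square test. Fisher's exact test called 31 members with PABPC4 and 9 with PABPC1, where 8.05% and 1.95% of all genes were called. The cause of the other moves was not tested. No paired analysis was possible because the recovered libraries cannot be tied to the replicate numbers of the labels. IgG reads, 1769 over all members, limit the precision of both comparisons with IgG.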
